A study of Drosophila melanogaster with 2 samples.

Results

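The 34 genes described here encode the core machinery of DNA replication in Drosophila melanogaster. They were chosen as a list of gene symbols and looked up in the gene annotation. The rule holds no measured value, but earlier results of these data were known when it was made. All 34 were found among 18277 annotated genes, of which 13968 are protein coding. A match by current symbol was found for 26 of them, and the other 8 matched a RefSeq synonym, such as lat for Orc3 and DNApol-alpha50 for Prim1. RefSeq lists lat as a synonym of the gene et as well, and it was set by hand to Orc3. The list covers the helicase MCM2-7, the origin recognition complex, licensing factors, CDC45 with GINS, the polymerases with primase, the sliding clamp with a clamp loader subunit, replication protein A, a ligase and ribonucleotide reductase.

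The study mapped the chromatin sites of CG9215 by immunoprecipitation and sequencing (ChIP-seq) in whole fly embryos aged 0 to 24 h. The strain, CG9215-GFP, carries an insertion targeting CG9215 and makes a CG9215-eGFP fusion, which was precipitated with an antibody against GFP; another field of the labels names CG9215 as the antibody. The labels give 1 group with 2 biological replicates, from separate biosamples, and both carry the fusion. No control library was used here. The sequence that drives the fusion, and whether untagged CG9215 was still made, the labels do not say. Whole embryos of mixed ages were pooled, so strong binding in few cells and weak binding in many cannot be told apart.

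Each deposited list gives peaks, stretches of the dm6 assembly where fragments piled up, with a summit and a signal value whose scaling is not stated. Signals are therefore read by their rank within a list. A thresholded list of 3442 peaks belongs to replicate 1 and one of 2624 to replicate 2. A conservative list of 3718 peaks, called across the replicates, had signals of 2.04 to 4174 with a median of 146. Ranked lists of 108069 peaks in replicate 1 and 112176 in replicate 2 also hold the weak peaks that missed the threshold, which lies at a −log10 of the irreproducible discovery rate (IDR) of 2. The IDR estimates how many peaks at that strength would fail to recur. The thresholded lists also lack some stronger peaks. In replicate 1 the Mcm2 peak, for example, stood at rank 681 of the ranked list and 653 of the thresholded one. The labels do not say why those peaks are missing, and the shares of protein-coding genes below are affected too. No ranked summit at a replication gene without a conservative peak reached the threshold of 2. Depth per library is unknown, since peak lists carry no read counts. A gene is counted as having a promoter peak where a summit lies within 500 bp of any of its annotated start sites, and a negative distance means that the summit is upstream of the start.

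DNA replication begins where the origin recognition complex marks the chromosome and Cdc6 and the Cdt1 protein, called dup in flies, load the ring-shaped MCM2-7 helicase around DNA. CDC45 and the GINS complex then turn the loaded ring into an active helicase, and DNA polymerases copy the opened strands while replication protein A covers the single strands. Fly embryos begin development with rapid S phases run on maternal stores, and later cycles need new transcription of these genes. In flies that transcription is known to depend on the E2F factor, with Dp as its partner, and on DREF, which binds the DNA replication-related element (DRE) named after these promoters.

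A single site is counted for 2 of the 34 genes, between the divergent start sites of Mcm2 and RPA1 on chromosome 3R. Its conservative peak spans chr3R:8264772-8264981 with the summit at 8264872, between the genes and outside any annotated exon. The 250 bases before the Mcm2 start site, chr3R:8264720-8264969 on the plus strand, read 5′ to 3′ as follows from RefSeq Release 6. The capitals mark the longest exact direct repeat in this stretch, 19 bases that stand at bases 18 to 36 and again at bases 135 to 153, and the conservative summit falls on base 153, the last base of the second copy.
Mcm2: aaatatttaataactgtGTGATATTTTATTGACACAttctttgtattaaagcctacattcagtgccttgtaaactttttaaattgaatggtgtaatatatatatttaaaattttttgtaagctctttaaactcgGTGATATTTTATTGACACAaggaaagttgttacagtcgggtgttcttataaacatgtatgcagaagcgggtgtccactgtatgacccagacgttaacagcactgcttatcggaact
The repeat was noticed in the sequence after the summit was known. The single-replicate summits lay at 8264878 in replicate 1 and 8264848 in replicate 2, and neither fell inside a copy. Direct repeats of this length or longer stood in the same window of 55 of 13968 protein-coding genes, or 0.394%, and the 2 copies before Mcm2 were the only exact copies on the chromosomes searched, on either strand. Neither copy contains the DRE or an E2F match.

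The site at Mcm5 had the lowest conservative signal of the member peaks, 88.8, and is printed here as a single case. Its conservative summit lies at base 10788347 of chromosome 3R, upstream of Mcm5, and the 101 bases centred on it, chr3R:10788297-10788397 on the plus strand, hold 31.7% G+C and no match to any motif searched here. They are printed without capitals for that reason. The replicate 1 summit, at 10788276, falls outside these bases. So does the ranked summit of replicate 2, 79 bp upstream of Mcm5, which did not pass the threshold.
Mcm5: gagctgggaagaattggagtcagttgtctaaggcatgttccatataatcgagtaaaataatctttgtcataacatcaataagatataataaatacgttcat

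The motifs known from replication gene promoters were looked for between 250 bases before and 50 bases after the outermost start site of each gene, on both strands. The DRE was searched as TATCGATA, and E2F sites as TTTCCCGC, TTTGGCGC, TTTCGCGC or TTTGCCGC; ATCGAT, which overlaps the DRE, was counted on its own. The first lines show a DRE in capitals and the rest an E2F match in capitals, all on the strand of their gene. Psf1 stands in both sets because it was the 1 gene with a conservative peak whose promoter holds a DRE. Mcm2, Mcm5 and DNApol-alpha50 also had a conservative peak, and DNApol-alpha180, DNApol-alpha60, Gnf1, Orc5, Psf3 and DNApol-epsilon255 show the elements at promoters without one. Psf1 and DNApol-alpha60 lie on 3L, Orc5 on 2L, Psf3 on X, and DNApol-alpha180, Gnf1 and DNApol-epsilon255 on 3R. The lines are a selection, and their mix of genes with and without a peak is not that of all members. Of the 16 members with an E2F match in the promoter window, 4 had a conservative peak, beside 18.1% of all such genes. Orc5 and DNApol-alpha60, shown for the DRE, also hold an E2F match.
Psf1: gaaataccaagTATCGATAccacaagtcga
DNApol-alpha180: cttaacgacacTATCGATAttacattgcaa
DNApol-alpha60: gagcagaaaacTATCGATAacaactgacac
Gnf1: atttagtgagcTATCGATAacgttcagtgc
Orc5: ttatttcgttaTATCGATAtttttcgattg
Psf3: cagttcgacttTATCGATAgtccgatgggc
Psf1: tcgacgaacatTTTGGCGCgaatccatcac
DNApol-epsilon255: ttttgaaattgGCGCCAAAcgtgttacttt
Mcm2: ttagcaaacatTTTCCCGCgcattt
Mcm5: cggtaattttgGCGGCAAAatattcgcac
DNApol-alpha50: aaataaaaagcGCGCGAAAatatgggaaca
The Mcm2 line starts at base 8264995 and the Mcm5 line at base 10788545 of 3R, both downstream of the start site. The DNApol-alpha50 line, chr3L:8340526-8340555, lies inside the gene, outside that promoter window, and is shown because the centre of its E2F match is 36 bp from the conservative summit.

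Of the 34 replication genes, 8 had a conservative promoter peak, or 23.5%, beside 17.3% of all protein-coding genes. These were Mcm2, dpa, Mcm5, dup, Psf1, DNApol-alpha50, RPA1 and RnrS. The thresholded list of replicate 1 held a promoter peak at the same 8 genes, again 23.5%, beside 16.1% of protein-coding genes, and that of replicate 2 at 6 genes, 17.6% beside 14.5%. Both replicates passed the threshold at 6 replication genes, 17.6%, beside 12.8% of protein-coding genes, and the 2 that passed in replicate 1 alone were Mcm5 and DNApol-alpha50. The other thresholded list of the series gave 8 genes beside 18.1%. In each list the share of the replication genes was slightly above the background, and no test was made of that difference. Where each conservative summit was counted for its nearest gene only, 4 replication genes remained, 11.8%, beside 12.4% of protein-coding genes.

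**Figure D1:**
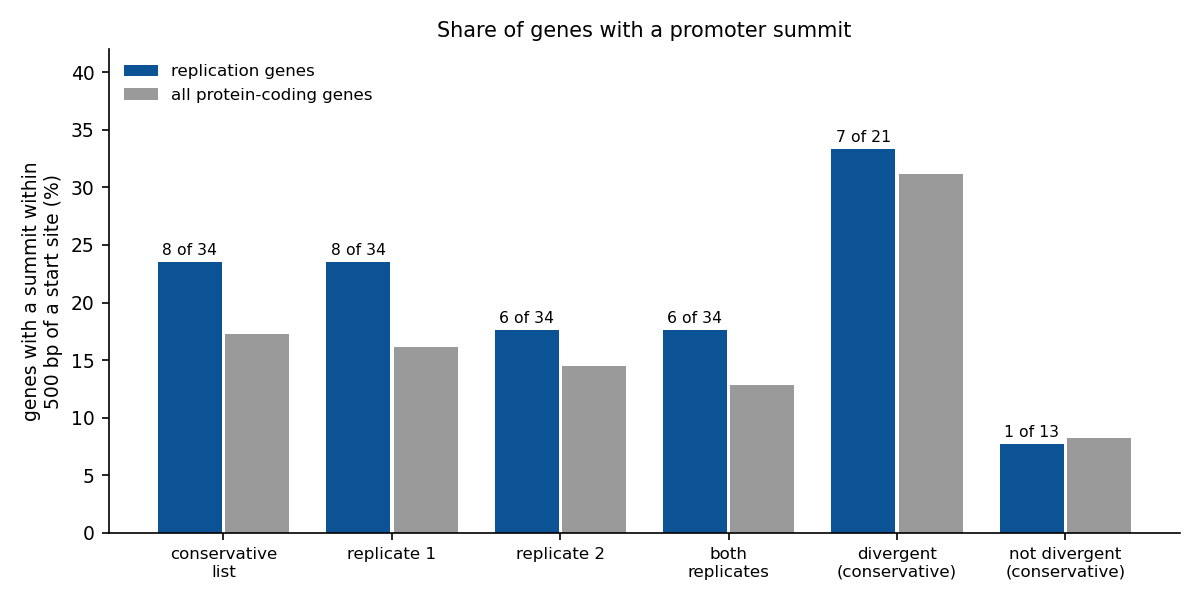
Share of genes (%) with a promoter summit within 500 bp of a start site. Blue bars are the 34 replication genes and grey bars all 13968 protein-coding genes, for the conservative list, each replicate, both replicates, and for genes with and without a divergent start site within 1000 bp upstream. The blue bars reach 23.5% in the conservative list, beside 17.3%, and the widest gap in height is between genes with and without a divergent neighbour, in blue and grey alike.

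Of the 6 helicase subunits, 3 had a conservative peak, beside 17.3% of protein-coding genes. In both replicates 2 of the 6 passed the threshold, beside 12.8%. Mcm2 (FBgn0014861), a subunit of the ring, had a conservative signal of 314, rank 715 of 3718, with the summit 98 bp upstream. Its signal was 175 in replicate 1, rank 653 of 3442, and 123 in replicate 2, rank 921 of 2624. The summits of the replicates lay 92 and 122 bp upstream, 30 bp apart. The same peak is counted for RPA1, the large subunit of replication protein A. The RPA1 start site lies 421 bp from the conservative summit on the other side and reads away from Mcm2. The start sites of Mcm2 and RPA1 are 519 bp apart, so this site counts for 2 of the 8 genes.

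The gene dpa (FBgn0015929), the fly Mcm4, matched Mcm2 closely in strength, with a conservative signal of 314 at rank 716. Replicate 1 gave a signal of 162, rank 731, and replicate 2 a signal of 149, rank 719. The conservative peak spans chr2R:7499881-7500101 and its summit falls in the 5′ UTR of dpa, 92 bp upstream of the nearer of its start sites. The gene didum, which encodes an unconventional myosin, starts 178 bp from the summit in the other direction, and the outer start sites of dpa and didum are 2 bp apart. The summit holds an E2F match within 50 bp.

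Mcm5 (FBgn0017577) stood near the low end of the list, with a conservative signal of 88.8 at rank 3019. Replicate 1 had a signal of 45.2, rank 3154 of 3442, at a −log10 IDR of 2.26, just past the threshold. Replicate 2 had a ranked summit of signal 46.1 at a −log10 IDR of 0.69, which did not pass. The replicates' summits lay 248 and 79 bp upstream of the Mcm5 start. Art1, which encodes an arginine methyltransferase, starts 121 bp from the conservative summit and is nearer to it than Mcm5, at 177 bp. Mcm3 had no summit of any rank within 500 bp in either replicate, Mcm6 had only a ranked summit of signal 8.56 in replicate 2, and Mcm7 had ranked summits of signal 23.4 in replicate 1 and 17.8 in replicate 2. The 6 subunits of 1 ring thus ranged from rank 715 of the conservative list to no summit at all.

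None of the 6 origin recognition complex genes had a peak past the threshold in any list, beside 17.3% of protein-coding genes in the conservative list. Orc2 and Orc6 had no ranked summit in either replicate. Orc1 had ranked signals of 7.70 in replicate 1 and 2.45 in replicate 2, and Orc5 had one of 21.7 in replicate 1 and a weaker one in replicate 2, with summits 500 and 487 bp upstream at the edge of the window. The gene lat, which encodes Orc3, had a ranked signal of 28.4 in replicate 1 alone, and Orc4 one of 7.21 in replicate 2 alone. Over all ranked peaks the median signal was 13.4 in replicate 1 and 13.9 in replicate 2, so that Orc1 and Orc4 stood below it, lat above it, and Orc5 above it in replicate 1 and below it in replicate 2.

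Among the licensing factors, dup (FBgn0000996), the helicase loader, carried 2 conservative summits. The stronger had a signal of 144, rank 1906, and lay 327 bp upstream of the nearest dup start site in an intron of SRPK, a kinase of splicing factors that reads the other way. The second had a signal of 129, rank 2130, 130 bp upstream of a dup start site and 20 bp downstream of a SRPK start site. In replicate 1 both passed, with signals of 74.2 and 83.0, so that the order of strength was turned round there. In replicate 2 the far summit passed with a signal of 69.0, rank 1865 of 2624, and the near one did not pass. The far summits of the replicates lay 4 bp apart. Cdc6, the other loader, had a ranked signal of 24.5 in replicate 2 alone, 495 bp downstream of its start, and geminin, which inhibits loading, had 27.1 in replicate 1 alone, at a −log10 IDR of 0.66.

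Of CDC45 and the 4 GINS subunits, Psf1 (FBgn0035194) passed in each list. Its conservative signal was 137, rank 1998, in an intron of Sac1 on chromosome 3L, 281 bp upstream of Psf1 and 62 bp upstream of the nearest start site of Sac1, which encodes a phosphoinositide phosphatase. Replicate 1 gave a signal of 71.9, rank 2092, and replicate 2 a signal of 68.4, rank 1877, with summits 34 bp apart. CDC45, Psf2, Psf3 and Sld5 all had ranked summits in both replicates that missed the threshold. Their signals ran between 15.1 and 28.0 in replicate 1 and between 11.4 and 25.1 in replicate 2, and Sld5 was the highest of the 4 in each. In each replicate the signal of Psf1 was above all of these.

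Of the 4 polymerase alpha and primase genes, DNApol-alpha50 (FBgn0011762), the catalytic primase subunit, had a conservative peak of signal 91.4 at rank 2949. Its summit was downstream of the start site, 191 bp inside the gene in an intron, while the other 7 genes had theirs upstream of their own nearest start site. Measured from the outer start site, the dpa summit and the second dup summit also lay inside their genes, 176 and 244 bp downstream. Replicate 1 passed with a signal of 44.5 and a −log10 IDR of 2.07, and replicate 2 had a ranked signal of 46.1 with a −log10 IDR of 1.60, just short of the threshold. CG7083 starts 280 bp from the conservative summit, and the replicate 1 summit was nearer to CG7083, at 169 bp, than to DNApol-alpha50, at 302 bp. DNApol-alpha73 had ranked signals of 19.0 and 10.2 in replicates 1 and 2, DNApol-alpha60 had 13.9 in replicate 2 alone, and DNApol-alpha180, the polymerase subunit, had none. The catalytic subunits of the leading and lagging strand polymerases, DNApol-epsilon255 and DNApol-delta, had no ranked summit in either replicate.

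The sliding clamp PCNA had a ranked signal of 29.7 in replicate 1 and 7.69 in replicate 2, and Gnf1, the large subunit of the clamp loader, had 25.9 and 25.6. Neither passed, and Gnf1 had the highest −log10 IDR of the genes without a peak, 0.93 in the ranked list of both replicates, where its signal was 51.8. DNAlig1, which joins Okazaki fragments, had ranked signals of 16.6 and 28.3 in replicates 1 and 2. RPA2 and RPA3, the smaller subunits of replication protein A, had no ranked summit, so that RPA1 was alone among the 3 in having a peak, and it shares that peak with Mcm2.

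The strongest site among the 34 genes was at RnrS (FBgn0011704), the small subunit of ribonucleotide reductase, which makes deoxynucleotides. Its conservative signal was 485, rank 361 of 3718, with the peak at chr2R:11985440-11985719 and the summit between genes, 202 bp upstream of RnrS. Replicate 1 gave a signal of 283, rank 312 of 3442, and replicate 2 a signal of 187, rank 516 of 2624. The summits of the replicates were 1 bp apart. RnrL, the large subunit of the same enzyme, had no ranked summit in either replicate, and its nearest conservative summit was 58579 bp away. The subunits of 1 enzyme thus stood at the extremes of the list.

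**Figure D2:**
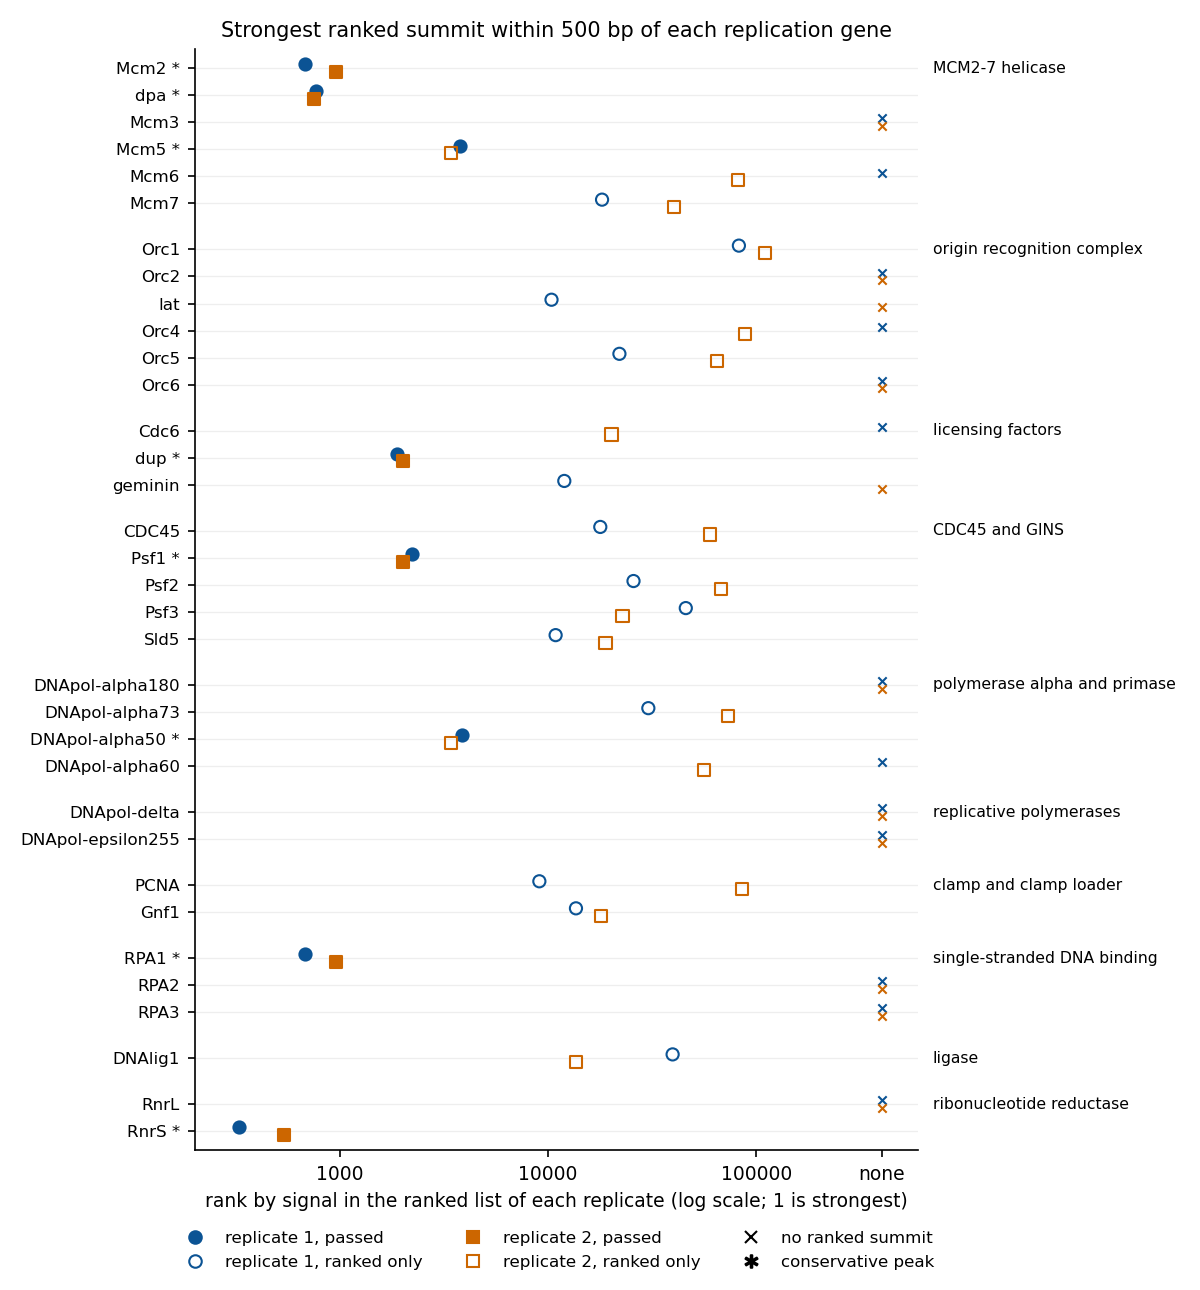
Rank by signal of the strongest summit within 500 bp of each of the 34 replication genes, in the ranked list of replicate 1 (blue circles) and of replicate 2 (orange squares), on a log axis on which rank 1 is the strongest. Filled symbols passed the authors' threshold in that replicate, crosses at the right are genes with no ranked summit, and asterisks mark a conservative peak. RnrS leads at ranks 327 and 536, the summits at genes with a conservative peak all stand at rank 3849 or stronger, and those at the other genes start at rank 9075, for PCNA in replicate 1.

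Of the 26 genes without a conservative peak, 11 had a ranked summit in both replicates, 6 in 1 replicate alone and 9 in neither. Those in neither were Mcm3, Orc2, Orc6, DNApol-alpha180, DNApol-delta, DNApol-epsilon255, RPA2, RPA3 and RnrL. Over all 34 genes, 19 had a ranked summit in both replicates, 55.9%, beside 53.7% of protein-coding genes, and the 9 in neither are 26.5%, beside 25.2%. The ranked lists therefore gave the replication genes almost the background share. The median −log10 IDR of the summits at the genes without a peak was 0.116 for 13 genes in replicate 1 and 0.0327 for 15 genes in replicate 2, far from the threshold of 2. The highest were 0.66 at geminin in replicate 1 and 0.43 at DNAlig1 in replicate 2.

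The distance of 500 bp did not split near neighbours. The farthest member start site inside it was RPA1, 421 bp from its summit, and the next summits outside lay 1120 bp from DNApol-epsilon255, with a signal of 121, and 1159 bp from Mcm3, with a signal of 247 at Rnp4F. Of the 26 genes without a peak, the median distance to the nearest conservative summit was 6810.0 bp, beside 12667 bp for 11549 protein-coding genes without one. Some of those neighbouring sites were far stronger than any at the replication genes, such as the summit of signal 3119 in an intron of Adf1, 6469 bp from geminin, which stood at rank 5. The nearest summit to DNApol-alpha180 was in an intron of E2f1, 43789 bp away, with a signal of 147.

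The 8 genes with a conservative peak shared 8 summits, since Mcm2 and RPA1 share 1 and dup has 2. The median position was 189.5 bp upstream of the member start site, taking the strongest summit for each gene, beside 142 bp upstream for the 2419 protein-coding genes with a peak. The summit was upstream of the nearest own start site at 7 of 8 genes, beside 90.3%. The median rank percentile, which is 100 for the strongest peak, was 64.8 beside 64.4, so the peaks of these genes were of ordinary strength for promoter peaks. The member's own start site was the nearest at 4 of the 8, namely Mcm2, dpa, DNApol-alpha50 and RnrS, beside 69.3%. At the other 4 the nearest start site was that of Art1, SRPK, Sac1 or, for RPA1, Mcm2.

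Most peaks at replication genes stood in divergent promoters, where a start site on the opposite strand lies within 1000 bp upstream. This split was chosen after the positions were seen. Of the 34 replication genes, 21 had such a neighbour, 61.8%, beside 39.6% of protein-coding genes. Among those 21 a conservative peak stood at 7, beside 31.2% of 5527 divergent protein-coding genes. Among the 13 without a divergent neighbour it stood at DNApol-alpha50 alone, beside 8.25% of 8441 protein-coding genes. Divided in this way the counts of the replication genes lay close to the background in each class. The divergent genes without a peak included pairs as close as those with one, such as DNApol-alpha73 and CG31064 at 78 bp, Sld5 and CG14543 at 83 bp, and Orc5 and Arpc1 at 96 bp.

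**Figure D3:**
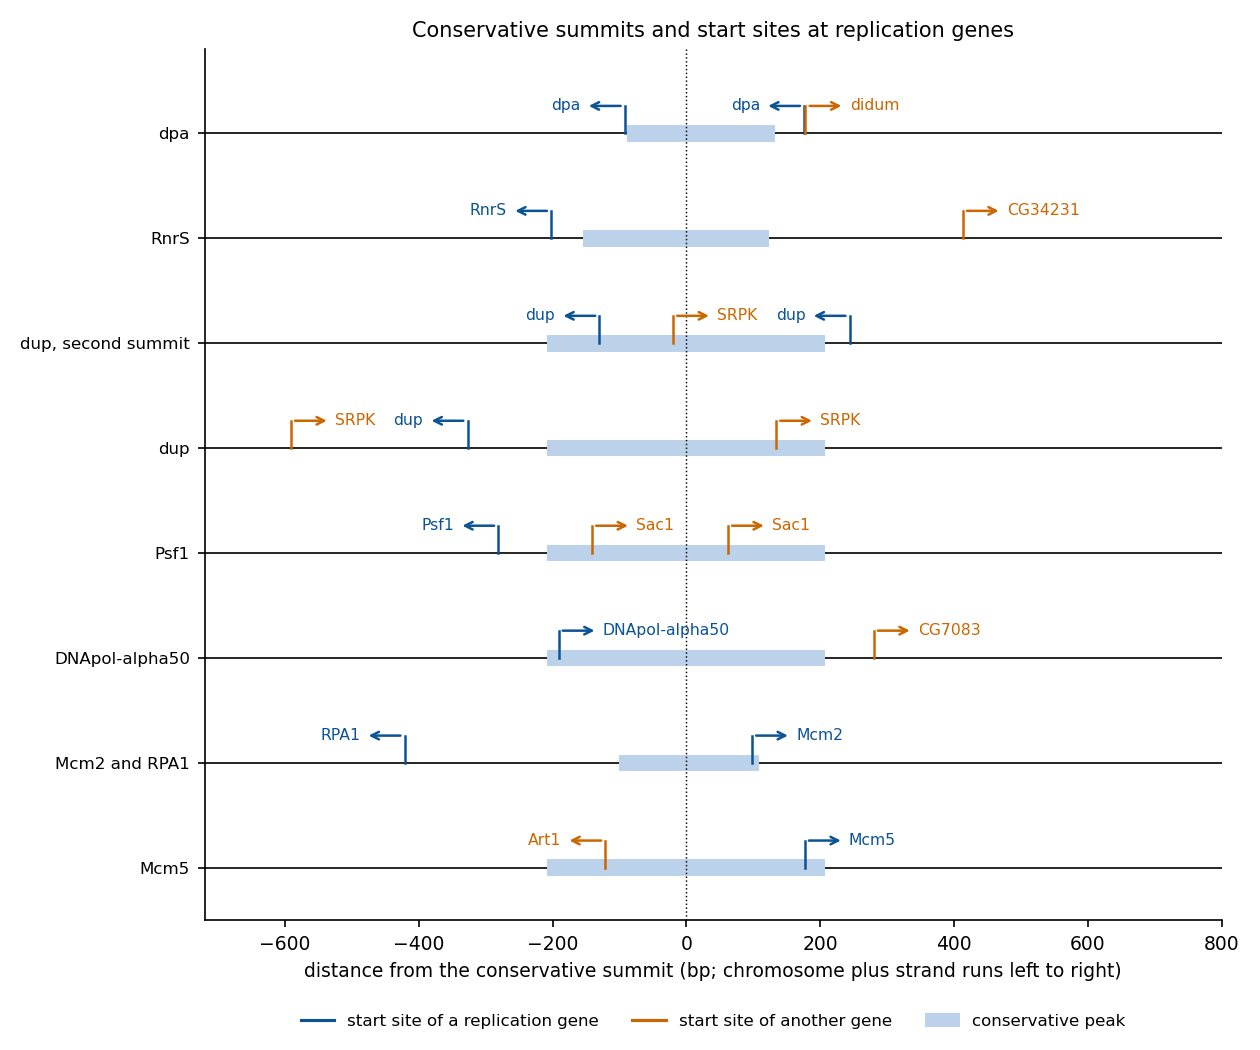
Conservative peaks (light bars) and their summits (dotted line at 0) at the 8 replication genes that have one, with start sites as arrows in the direction of transcription, blue for replication genes and orange for others. The horizontal axis is the distance from the summit in bp along the plus strand. Start sites of both strands stand near each summit except that of DNApol-alpha50, where both start sites read the same way; the Mcm2 and RPA1 starts lie 98 and 421 bp from a single summit.

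By chromosome, a conservative promoter peak stood at 3 of 10 replication genes on 2R, beside 15.4% of the protein-coding genes there, at 2 of 6 on 3L, beside 17.7%, and at 3 of 9 on 3R, beside 18.3%. The 4 genes on 2L and the 5 on X had none, beside 17.3% and 18.6%. Peaks at 5 of the 8 member summits had the width of 416 bp that 70.1% of all conservative peaks share, so their edges carry no information on the extent of binding. The narrowest member peak was that of Mcm2 and RPA1, at 210 bp.

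The promoters of the replication genes held their known elements more often than other promoters, and few of those with a DRE had a peak. A DRE stood in 12 of the 34 promoters, 35.3%, beside 9.36% of protein-coding promoters. A conservative peak was found at 1 of those 12 genes, Psf1, beside 26.5% of all genes with a DRE promoter. The other 11 were Orc2, lat, Orc5, Psf3, Sld5, DNApol-alpha180, DNApol-alpha73, DNApol-alpha60, PCNA, Gnf1 and DNAlig1, and DNApol-alpha180 held 3 DREs with no ranked summit in either replicate. An E2F match stood in 16 promoters, 47.1%, beside 6.41%, and 4 of these genes had a conservative peak, Mcm2, Mcm5, Psf1 and RnrS, beside 18.1% of all genes with an E2F promoter. Of the 11 replication genes with neither element, 4 had a peak, dpa, dup, DNApol-alpha50 and RPA1, beside 16.3%. Elements were read only around the outermost start site, whereas a peak could stand at any start site. Among these 4, dpa and DNApol-alpha50 had an E2F match within 50 bp of the conservative summit. None of the comparisons in this paragraph was tested.

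At the summits themselves no DRE was found, and an E2F match was found at 2. No DRE lay within 50 bp of any of the 8 member summits, beside 3.13% of 1918 conservative promoter summits and 0.772% of 13474 promoter summits outside the thresholded lists. At Psf1 the DRE was 205 bp and the E2F match 231 bp from the summit. The E2F matches of Mcm2, Mcm5 and RnrS were 138, 213 and 152 bp from their summits. An E2F match lay within 50 bp at 2 of the 8, dpa and DNApol-alpha50, beside 1.36% of conservative promoter summits. Among promoter summits outside the thresholded lists the share was 2.26%. At neither gene was that match inside the promoter window searched above. At DNApol-alpha50 only replicate 1 passed the threshold, and its summit, at 8340616, lay more than 50 bp from the match. Promoters of the replication genes hold E2F matches more often than others, 47.1% beside 6.41%, and the background summits are not matched for that. None of the shares at summits was tested. The shorter ATCGAT stood at 1, the second dup summit, beside 7.66%. TATAAA, a core promoter pattern, stood at 2, the Mcm2 and RPA1 summit and the stronger dup summit, beside 22.3%. GAGAG, the GAGA factor pattern, stood at none, beside 8.19%. GGTCACAC, the core of the M1BP motif, also stood at none, beside 1.09%. CACGTG, the E-box, stood at none, beside 0.938%. GGTATTT, another core promoter pattern, likewise stood at none, beside 3.13%. The median G+C content of the 101 bases at member summits was 32.7%, with a range of 27.7% to 41.6%, the same as the 32.7% of conservative promoter summits, beside 49.5% of promoter summits outside the thresholded lists.

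**Figure D4:**
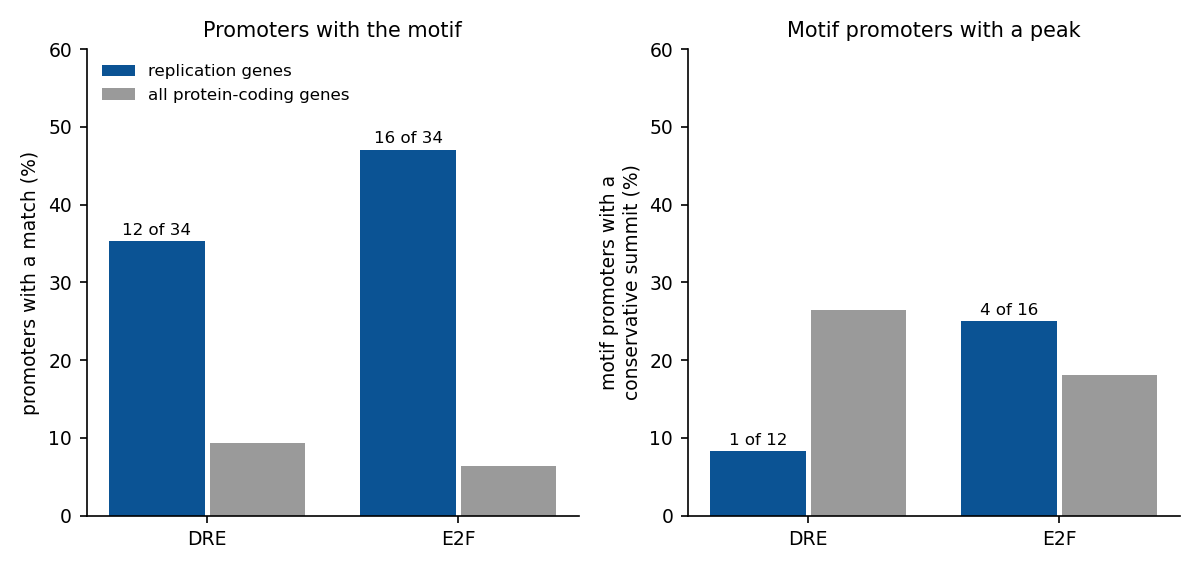
Left, share of promoters (%, 250 bases before to 50 after the start site) with a DRE or an E2F match, for the 34 replication genes (blue) and all protein-coding genes (grey). Right, share of the genes with that element that have a conservative promoter summit. Blue stands above grey in the left panel for both elements; in the right panel 1 of 12 replication genes with a DRE has a peak, beside 26.5% in grey.

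The wider pathway was read from 3 further lists with 38 genes in all, and 11 of these, 28.9%, had a conservative promoter peak, beside 17.3% of protein-coding genes. A peak in both replicates stood at 8 of them, beside 12.8% of protein-coding genes. The 3 lists were chosen with earlier results of these data known, and these shares were not tested. Of 19 further fork and origin factors 6, or 31.6%, had a peak, beside the same 17.3%. The strongest were CG8142, a predicted clamp loader subunit, with a signal of 628 at rank 253, and PolD2, the second subunit of polymerase delta, with 520.3 at rank 321. Top1, which relaxes supercoils ahead of the fork, had a signal of 336 and chif, the activator of the Cdc7 kinase, had 242. Top2 had 124 and Ctf4 had 94.4, and both of these passed in replicate 1 alone. PolD2 was thus far above DNApol-delta, the catalytic partner of its product, which had no ranked summit.

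Of 14 S phase regulators and nucleotide supply genes 5, or 35.7%, had a conservative peak, beside 17.3% of protein-coding genes. The inhibitor of cyclin E and its kinase, dap, had a signal of 815 at rank 153, and Dp, the partner of E2F, had 722 at rank 195. The checkpoint kinase mei-41 had a signal of 597 and CycE, the cyclin of S phase entry, 273. The fifth, dUTPase, had 87.2 and passed in replicate 2 alone. The strongest of these exceeded RnrS, the strongest of the 34 genes, at 485. E2f1, E2f2, Rbf and Rbf2 had no promoter summit past the threshold. Of the 5 genes for chromatin assembly at the fork none had a conservative peak, beside 17.3%, and the gene for the large subunit of chromatin assembly factor passed in replicate 1 alone with a signal of 45.0.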

How the data were processed

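The authors deposited 8 peak lists on dm6: a ranked and a thresholded list for each replicate, and 2 ranked, a thresholded and a conservative list for the series, as the deposited text files state. No source used here names the aligner or the peak caller. The deposited signal column is the caller's value, with no stated scaling; a −log10 of the IDR stands in the deposited ranked lists. One ranked series list of 122959 peaks has 102395 source peaks in the list of replicate 1 and 105088 in that of replicate 2, and is used as that of both replicates; the other has 3 and 0. Chromatin was sheared to a size range of 200 to 800, per the labels.

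Start sites came from Ensembl release 115 (BDGP 6.54), 41 for the 34 genes, and sequence from RefSeq Release 6. Summits were matched with Python 3.11.15 and pysam 0.24.0; the scripts were tested on simulated data. The rule named every member with its values, pathway genes with a conservative promoter summit, and neighbours that share a promoter. Members, lists, motifs and this rule were chosen with earlier results of these data known. No p-value was computed, because the labels give 1 group.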

Additional observations from a re-analysis of the deposited data

How the results depend on the processing

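Counting start sites within 250 bp in place of 500 bp left 6 genes with a conservative peak, beside 13.9% of protein-coding genes. In both replicates 3 genes were left. The share of protein-coding genes in both replicates was not computed at 250 bp, so that count has no background beside it. The median position became -114 bp and the median rank percentile 61.8. Within 1000 bp the count was 8, beside 19.8%. Conservative peaks above the median signal held 4 of the genes, Mcm2, dpa, RPA1 and RnrS, beside 11.4%, with a median rank percentile of 80.8 among all conservative peaks; counting each summit for its nearest gene also left 4, or 11.8% of the 34, beside 12.4%. Under these 2 settings the share was at the background. The other thresholded list moved the percentile to 68.0. The lists of single replicates, each leaving the other replicate out, gave 6 to 8 genes, percentiles of 63.6 to 64.9 and median positions of -241 to -164 bp. An ATCGAT core stood at 1 member summit where TATCGATA stood at 0, and TATCGATA stood in 12 promoters with or without a peak. Ranked summits of any score in both replicates stood at 19 genes. Of the 40 alternatives, which include those above, 29 stayed near the reported count, or within the spread between replicates. That spread is the standard deviation of the 2 single-replicate values, which were themselves judged against it. No paired analysis was possible because the labels give 1 group. The lists hold no counts, so depth could not be set against any missing peak. The repeat at Mcm2 and the split by divergent neighbour were added after the data were seen.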
